A study of Homo sapiens with 8 samples.

Results

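The genes described are SPRY1, SPRY2, SPRY4, SPRED1, SPRED2 and ERRFI1, which encode inhibitors of receptor tyrosine kinase signalling. They were taken as every probe set of the human exon arrays whose deposited gene symbol equals one of these 6 names. That gave 66 of 287329 probe sets, and all 6 genes had enough of them to be given a gene value, out of 16145 genes with one. The arrays measured total RNA of HEK293, an established human embryonic kidney line grown in RPMI medium with serum. Control cells and cells labelled shELL, described as a knockdown of the elongation factor ELL, were each left unstimulated or given EGF at 50 ng/mL for 1 h. Each of these 4 groups held 2 arrays, labelled as biological replicates. How the knockdown was made, and whether the shELL cells are 1 clone or a pool, was not stated in the labels.

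EGF binds its receptor, the receptor recruits GRB2 and SOS, and RAS then drives the RAF, MEK and ERK kinases, whose activity reaches early response genes in the nucleus. Sprouty proteins (SPRY) are membrane-associated adaptors that dampen this route between receptor and RAF, and SPRED proteins carry the RAS inactivator neurofibromin (NF1) to the membrane. ERRFI1, also called MIG6 or RALT, binds the kinase domain of the EGF receptor itself and blocks it. Several of these genes are known targets of the route that they restrain, so they form a negative feedback.

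The start regions of 3 of the genes, picked by the results below, are shown: ERRFI1 and SPRY4 for EGF, and SPRY1 for the difference between the lines. They run from 250 bases before to 50 bases after a transcription start, in the direction of transcription, and come from RefSeq on GRCh38.p14, whose table held 10 such windows for the 6 genes. Capitals mark matches, on either strand, to AP-1 (TGANTCA), the CRE core (TGACG), ETS (CCGGAA), EGR (GCGNGGGCG), the TATA box (TATAAA or TATATA) and the CArG box of SRF. Of SPRY1's pair of windows, the one with a match is shown.
ERRFI1, chr1:8026260-8026559, minus strand: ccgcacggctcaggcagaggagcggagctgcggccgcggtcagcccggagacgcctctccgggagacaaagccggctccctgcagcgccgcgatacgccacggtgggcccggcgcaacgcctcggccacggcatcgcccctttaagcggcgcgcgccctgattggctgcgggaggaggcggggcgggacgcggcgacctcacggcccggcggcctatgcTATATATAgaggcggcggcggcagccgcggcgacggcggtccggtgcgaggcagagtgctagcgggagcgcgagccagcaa
SPRY4, chr5:142324198-142324497, minus strand: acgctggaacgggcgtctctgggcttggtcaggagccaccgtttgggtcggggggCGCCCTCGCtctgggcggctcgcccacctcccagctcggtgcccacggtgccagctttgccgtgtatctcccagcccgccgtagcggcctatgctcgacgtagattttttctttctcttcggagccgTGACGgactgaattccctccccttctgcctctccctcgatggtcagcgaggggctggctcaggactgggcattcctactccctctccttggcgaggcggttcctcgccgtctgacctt
SPRY1, chr4:123398136-123398435, plus strand: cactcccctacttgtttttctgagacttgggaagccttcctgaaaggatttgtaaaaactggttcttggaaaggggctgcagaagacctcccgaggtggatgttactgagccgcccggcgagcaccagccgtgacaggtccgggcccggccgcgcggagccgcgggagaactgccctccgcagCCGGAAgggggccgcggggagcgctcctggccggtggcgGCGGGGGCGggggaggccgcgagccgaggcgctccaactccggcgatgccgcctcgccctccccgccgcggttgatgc

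In ERRFI1 only the TATA motif was found, as 2 overlapping matches that begin 31 and 29 bases before the start. A TATA motif is present in 13.7% of all 35116 such windows in the table. SPRY4 had 1 CRE core and 1 EGR match, present in 24.6% and 9.43% of all windows, and the SPRY1 window had 1 ETS and 1 EGR match, ETS being present in 17.2%. AP-1 (7.71% of all windows) was matched among the 10 windows only in 1 of SPRED2, and the CArG box (1.29%) in none of them. Of the windows not shown, 1 of SPRY2 had 1 CRE core, 1 ETS and 2 EGR matches. Those of SPRED2 also held 1 CRE core and 1 TATA match. The matches describe letters in these windows and say nothing of whether a factor binds there.

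The deposited values were log2 probe-set values that were not on 1 scale between arrays, with array medians from 1.33 to 2.95, so they were quantile-normalized before anything else. A gene value summarises a gene's probe sets by median polish on the log2 scale, and the unadorned word level means that value. Replicate arrays correlated at 0.954, 0.926 and 0.911 in unstimulated control, control with EGF and unstimulated shELL, but at 0.784 in shELL with EGF, whose replicate 1 was the dimmest array. The glycolytic enzyme gene GAPDH was at 8.03 to 9.10 on 4 arrays, those of unstimulated control and the second replicates of shELL, and at 6.61 to 7.48 on the rest. Of 7 HEK293 markers, 4 (VIM, INA, IRS4 and NEFL) had a mean above background, while PAX2 (2.18), NEFM (2.30) and LHX1 (2.72) did not. Background is the 95th percentile of the mean levels of 45 olfactory receptor genes, 2.77, or of 1265 olfactory receptor probe sets, 2.53. The 45 are those that kept at least 3 probe sets past the filter on dim probe sets, so 2.77 may lie high. No such filter was applied to the 1265. ELL itself was at 2.50 to 2.88 in the 4 control arrays and at 2.63 to 3.86 in the 4 arrays labelled shELL, 0.40 higher in the latter (95% interval -0.25 to 1.05, limma adjusted p = 1.00). The labelled depletion was therefore not seen in the level of ELL, and which line is which was taken from the labels alone. The control mean of ELL, 2.62, was itself below the background of 2.77, so these arrays left little room to see a decrease.

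Differences were tested with limma in a fit over all 16145 genes, with 4 residual degrees of freedom, and p-values were adjusted over all genes by the Benjamini-Hochberg method. None of the 6 genes passed an adjusted p of 0.05 in any of the 5 comparisons made. Among all genes, EGR1 alone passed for EGF in control, for EGF in shELL and for EGF averaged over the lines (0.00619% of genes tested in each), and no gene passed for shELL minus control or for the interaction (0%). With an unadjusted p under 0.05, the same fit held 434 genes (2.69%) for EGF in control, 398 (2.47%) for EGF in shELL, 511 (3.17%) for EGF averaged over the lines, 426 (2.64%) between the lines and 280 (1.73%) for the interaction. Of the 6 genes, ERRFI1 and SPRY4 were among those for EGF in control and for the average, ERRFI1 for EGF in shELL, SPRY1 and SPRY4 between the lines, and SPRY4 for the interaction. The values below are thus described by their size, their intervals and whether the arrays overlap.

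**Figure D1:**
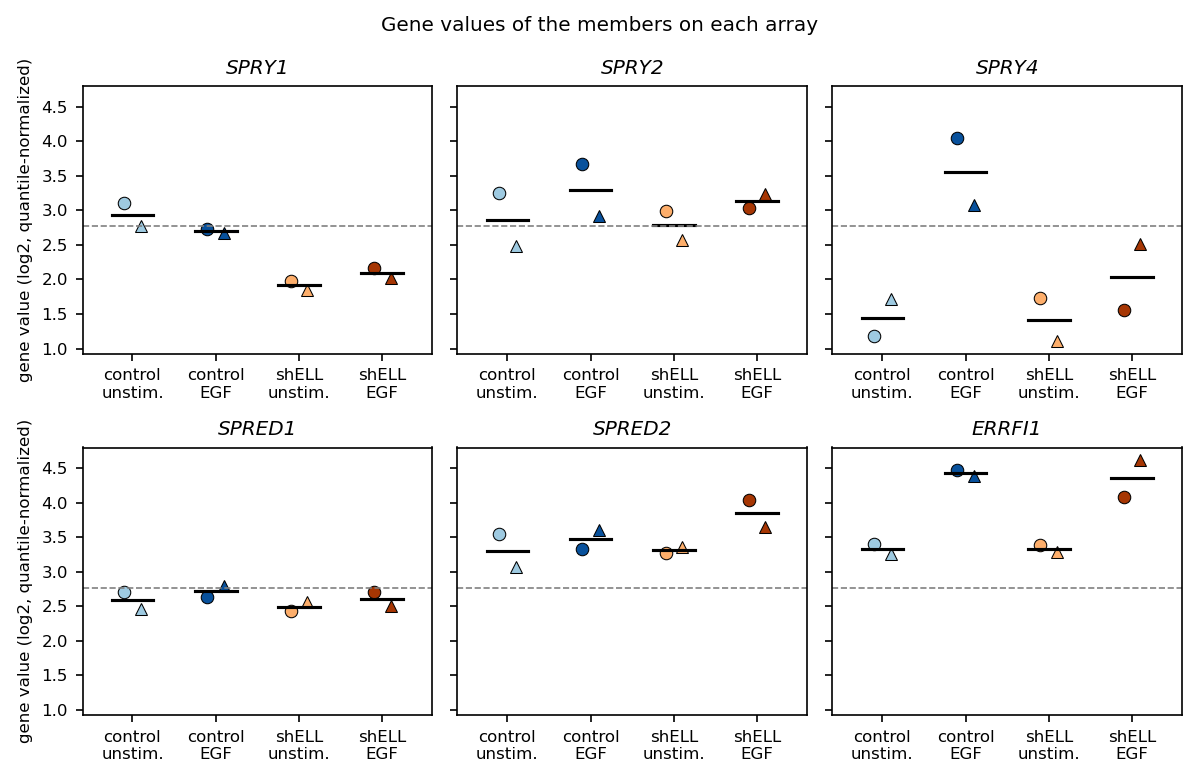
Gene values (log2, quantile-normalized) of the 6 genes on each of the 8 arrays, by group. Circles are replicate 1, triangles replicate 2, bars the mean of a group, and the dashed line is the background level of 2.77. ERRFI1 lies at 4.08 to 4.62 on the 4 EGF arrays, above its 3.26 to 3.40 without EGF, and SPRY1 lies lower on the 4 shELL arrays than on the 4 control arrays.

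ERRFI1 was higher on the EGF arrays of both lines. It was at 3.40 and 3.26 in replicates 1 and 2 of unstimulated control, and at 4.48 and 4.39 in control with EGF. In the arrays labelled shELL it was at 3.38 and 3.29 unstimulated and at 4.08 and 4.62 with EGF. Every EGF array lay above every unstimulated array, a separation that 1.58% of all genes showed in this direction and 1.13% in the other. The EGF difference was 1.10 in control (95% interval 0.43 to 1.78), which is 2.15-fold, and 1.02 in shELL (0.34 to 1.69), which is 2.02-fold. Averaged over the lines it was 1.06 with SE 0.21 (limma adjusted p = 0.807, n = 4 against 4), the 15th smallest p of all genes. The change in shELL minus that in control was -0.09, with an interval from -1.05 to 0.87 that allows a difference of about the size of the change itself. On the values as deposited the EGF difference was 1.01 in control and 0.24 in shELL (interaction -0.77), and with array median centring 0.70 in shELL (interaction -0.50). For all genes the median for EGF in shELL was -0.68 as deposited and -0.25 with median centring. Their median interaction was -0.66 and -0.43 in these 2 settings.

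SPRY4, the Sprouty of this set with the widest spread over the arrays, was higher with EGF in control, while its shELL arrays overlapped. Its levels were 1.18 and 1.71 in replicates 1 and 2 of unstimulated control and 4.04 and 3.08 in control with EGF. Unstimulated shELL was at 1.73 and 1.10, and shELL with EGF at 1.56 and 2.51. Both control EGF arrays lay above both unstimulated control arrays, which held for 24.5% of all genes, and only the mean of control with EGF was above background. No fold is therefore given. The EGF difference in log2 level was 2.11 in control (95% interval 1.08 to 3.15, limma adjusted p = 0.996), the 13th smallest p of all genes, and 0.62 in shELL (-0.42 to 1.66).

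The interaction of SPRY4, its EGF difference in shELL minus that in control, was -1.49 (SE 0.65, 95% interval -2.96 to -0.03, limma adjusted p = 1.00, unadjusted p = 0.0470). An unadjusted p under 0.05 was found for 1.73% of genes in this comparison. Between same-numbered arrays the EGF difference of SPRY4 in shELL was -0.16 for replicate 1, whose EGF array is the dimmest, and 1.41 for replicate 2. In control these differences were 2.86 and 1.37. Over all genes, same-numbered control arrays deviated from their group means with a correlation of -0.16, so pairing them by number has little basis. With the dim array left out, the difference in shELL was 1.09 and the interaction -1.02, and without replicate 2 the difference in shELL was 0.15 and the interaction -1.97. EGR1, which was called in both lines, was at 7.14 on that dim array and at 7.91 on replicate 2.

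SPRY2, an inhibitor that holds GRB2 and the ubiquitin ligase CBL, had EGF and unstimulated arrays that overlapped in control and, over both lines, overall. It was at 3.25 and 2.48 in unstimulated control, 3.67 and 2.92 in control with EGF, 2.996 and 2.57 in unstimulated shELL and 3.03 and 3.23 in shELL with EGF. Replicate 1 was the higher array in the first 3 groups, and both shELL EGF arrays lay above both unstimulated shELL arrays, as for 10.4% of all genes. Its EGF difference averaged over the lines was 0.39 (95% interval -0.22 to 1.01, limma adjusted p = 0.901), and -0.02 on the values as deposited, where the median of all genes was -0.36. Among control arrays, leaving out the second unstimulated one or the first with EGF gave 0.20, and leaving out either of the other two gave 0.58. The interaction was -0.08 (-1.31 to 1.15).

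SPRED1, a carrier of neurofibromin, was at 2.43 to 2.80 over all 8 arrays, and only replicate 2 of control with EGF exceeded the background level. Its EGF difference averaged over the lines was 0.12 (95% interval -0.33 to 0.57, limma adjusted p = 0.916). SPRED2 was above background in all 4 groups, at 3.54 and 3.07 in unstimulated control, 3.34 and 3.61 in control with EGF, 3.27 and 3.36 in unstimulated shELL and 4.04 and 3.65 in shELL with EGF. Both shELL EGF arrays lay above both unstimulated shELL arrays, as for 10.4% of all genes, and the control arrays overlapped. The EGF difference of SPRED2 was 0.17 in control (-0.54 to 0.87) and 0.53 in shELL (-0.18 to 1.23), and the interaction was 0.36 (-0.64 to 1.36). On the values as deposited the averaged EGF difference was -0.25 for SPRED1 and -0.35 for SPRED2, beside the -0.36 of the median gene.

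SPRY1, a further Sprouty adaptor, separated by line, while over both lines its EGF and unstimulated arrays overlapped. It was at 3.10 and 2.77 in unstimulated control, 2.74 and 2.67 in control with EGF, 1.98 and 1.84 in unstimulated shELL and 2.17 and 2.02 in shELL with EGF. Every shELL array lay below every control array, a separation that 1.47% of all genes showed in this direction and 1.11% in the other. The difference in log2 level was -0.82 (SE 0.20, 95% interval -1.27 to -0.37, limma adjusted p = 1.00), the 25th smallest p of all genes, and -1.03 without EGF and -0.61 with it. All 4 group means but that of unstimulated control lay below background, so no fold is given. With EGF both control arrays were lower (15.7% of all genes) and both shELL arrays higher (10.4% of all genes) than the unstimulated ones. The averaged EGF difference was -0.03 (-0.48 to 0.43).

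The arrays of the other 5 genes overlapped between the lines. SPRY4 was -0.78 in log2 level in shELL (95% interval -1.51 to -0.04, limma adjusted p = 1.00). By state the difference was -0.03 without EGF and -1.53 with it. SPRY2 (-0.12, interval -0.74 to 0.50), SPRED1 (-0.11, -0.55 to 0.34), SPRED2 (0.19, -0.31 to 0.69) and ERRFI1 (-0.04, -0.52 to 0.44) had intervals that held 0. These comparisons share their arrays with the EGF comparisons above.

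**Figure D2:**
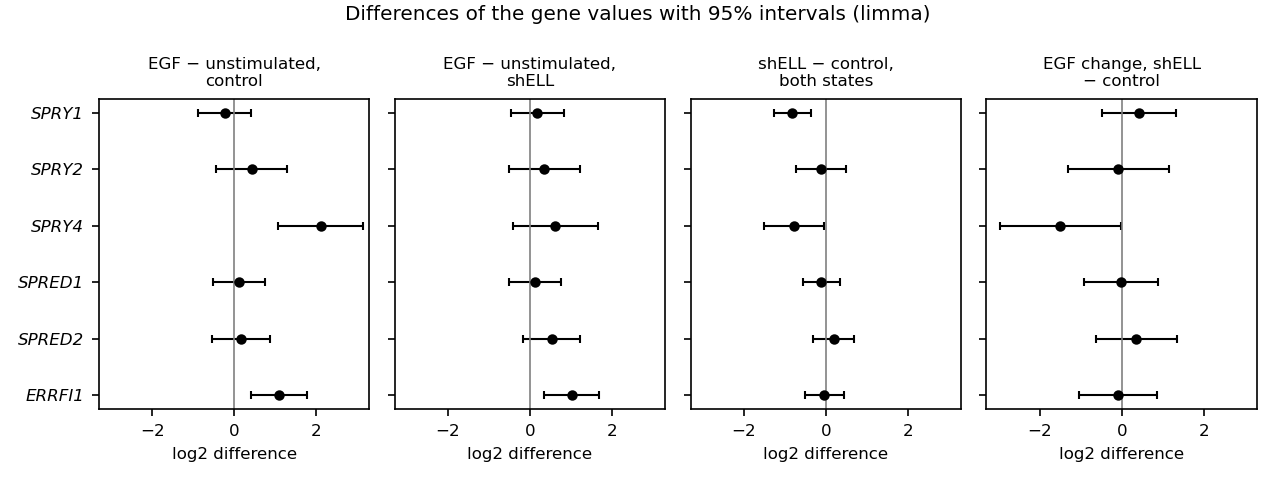
Differences in gene value (log2) of the 6 genes in 4 comparisons, with 95% intervals from limma over all 16145 genes. ERRFI1 lies near 1 in both EGF comparisons, SPRY4 at 2.11 in control and 0.62 in shELL, and SPRY1 at -0.82 between the lines.

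The 66 probe sets were then read singly, each a small group of probes within an exon or part of one. Of these, 61 reached the level that the filter on dim probe sets asks for, and 49 were above background in at least 1 group. The members nearest to the filter level of 1.16 were a SPRY2 probe set at 1.19, kept, and a SPRED1 probe set at 1.02, left out of the gene value. The filter used the mean of all 8 arrays. The SPRY4 probe set at 141694028, kept at 1.32, passed through control with EGF (2.93). Its other group means, 0.77 (control, no EGF), 0.48 (shELL, no EGF) and 1.11 (shELL, EGF), lay below the filter level. With no filter, the EGF difference of SPRY4 in control was 2.03 against 2.11, and its interaction -1.27 against -1.49. No probe set of the 211764 tested passed for EGF averaged over the lines (0%) or for shELL minus control (0%), with 6828 (3.22%) and 5369 (2.54%) at an unadjusted p under 0.05 in limma. In 8 of the 66, or 12.1%, every EGF array lay above every unstimulated array, and in 0 every one lay below. Among all 280649 probe sets with 1 symbol the share was 1.37% above and 1.08% below. The 8 were 5 of ERRFI1, 2 of SPRY4 and 1 of SPRED2. Of these, the ERRFI1 probe sets at places 7 and 8 from the 5′ end, both of SPRY4 and that of SPRED2 started from the floor. Their unstimulated means were below the background of 2.53 in both lines. The ERRFI1 probe set at place 8 was above background only in shELL with EGF (2.94). Probe sets of 1 gene share its transcript and its arrays, so the 8 are not independent.

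ERRFI1 (chromosome 1, deposited positions 8072266 to 8086354, minus strand, genome build not stated) had 10 probe sets, and the averaged EGF difference was above 0 for 9 of the 10. Over all 66 it was above 0 for 47, or 71.2%, against 53% of all single-symbol probe sets. The probe set at 8075691 was at 6.73 and 5.17 in unstimulated control and 7.90 and 8.18 with EGF, and at 6.76 and 6.35 in unstimulated shELL and 8.69 and 7.73 with EGF. Its averaged EGF difference was 1.87 (SE 0.56, adjusted p = 0.973 in limma over all probe sets). The 5 separated probe sets lay at places 2, 3, 6, 7 and 8 of 10 counted from the 5′ end, with averaged differences from 1.27 to 1.87. The 2 between them, at places 4 and 5, averaged 0.43 each, and the last, at -0.03, was not above background.

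SPRY4 (chromosome 5, deposited positions 141690264 to 141704435, minus strand) had 7 probe sets, and the averaged EGF difference was above 0 for 6 of the 7. Nearest to the 5′ end, the probe set at 141704409 was at 1.72 and 3.82 in unstimulated control and 5.93 and 6.23 in control with EGF. On the shELL arrays that probe set was at 3.91 and 2.90 unstimulated and at 3.09 and 4.46 with EGF. Over all 7, the median EGF difference was 2.33 in control and 0.42 in shELL. Both control EGF arrays exceeded both unstimulated ones in 6 of the 7, beside 21.4% of all single-symbol probe sets. In control this also held for 8 of the 10 of ERRFI1, and for 24 of all 66. Within shELL it held for 2 of the 7, for 5 of the 10 of ERRFI1 and for 19 of all 66. For shELL the share of all single-symbol probe sets was not computed. The probe sets at places 2 and 7 from the 5′ end were the separated ones, with averaged differences of 2.01 and 1.92.

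SPRED2 (chromosome 2, deposited positions 65538339 to 65659207, minus strand) had 20 probe sets, with a median averaged EGF difference of 0.18 and a range from -1.52 to 1.56. Its separated probe set, at 65659096 and only 26 bases long, was at 1.75 and 2.46 in unstimulated control, 2.74 and 3.92 in control with EGF, 2.43 and 1.90 in unstimulated shELL and 4.59 and 3.52 in shELL with EGF. The neighbouring probe set at the 5′ end, the brightest of the gene with a mean of 7.32, had an averaged difference of 0.38. SPRED1 (chromosome 15, deposited positions 38545154 to 38646195, plus strand) had 15 probe sets, 8 above background in a group, with a median of 0.30. SPRY2 (chromosome 13, deposited positions 80910535 to 80911891, minus strand) had 6, with a median of 0.71. No probe set of SPRED1, SPRY1 or SPRY2 separated the EGF arrays. In control the largest EGF difference of the 66 was 3.66, for the SPRED1 probe set at 38545329. It was at 0.82 and 1.91 in unstimulated control and at 5.27 and 4.78 in control with EGF. On the shELL arrays it was at 5.28 and 1.46 unstimulated and at 3.19 and 2.91 with EGF. Its interaction was -3.98, against -2.94 for the SPRY4 probe set at 141704409.

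SPRY1 (chromosome 4, deposited positions 124320795 to 124324608, plus strand) had 8 probe sets, and all 8 had a lower mean in shELL than in control, by -0.27 to -1.08 with a median of -0.52. For none of them did the 4 shELL arrays fall below the 4 control arrays, so the separation seen in the gene value appears only in their summary. Of the 8, 4 were above background in some group. Over all single-symbol probe sets 51.5% were higher in shELL.

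**Figure D3:**
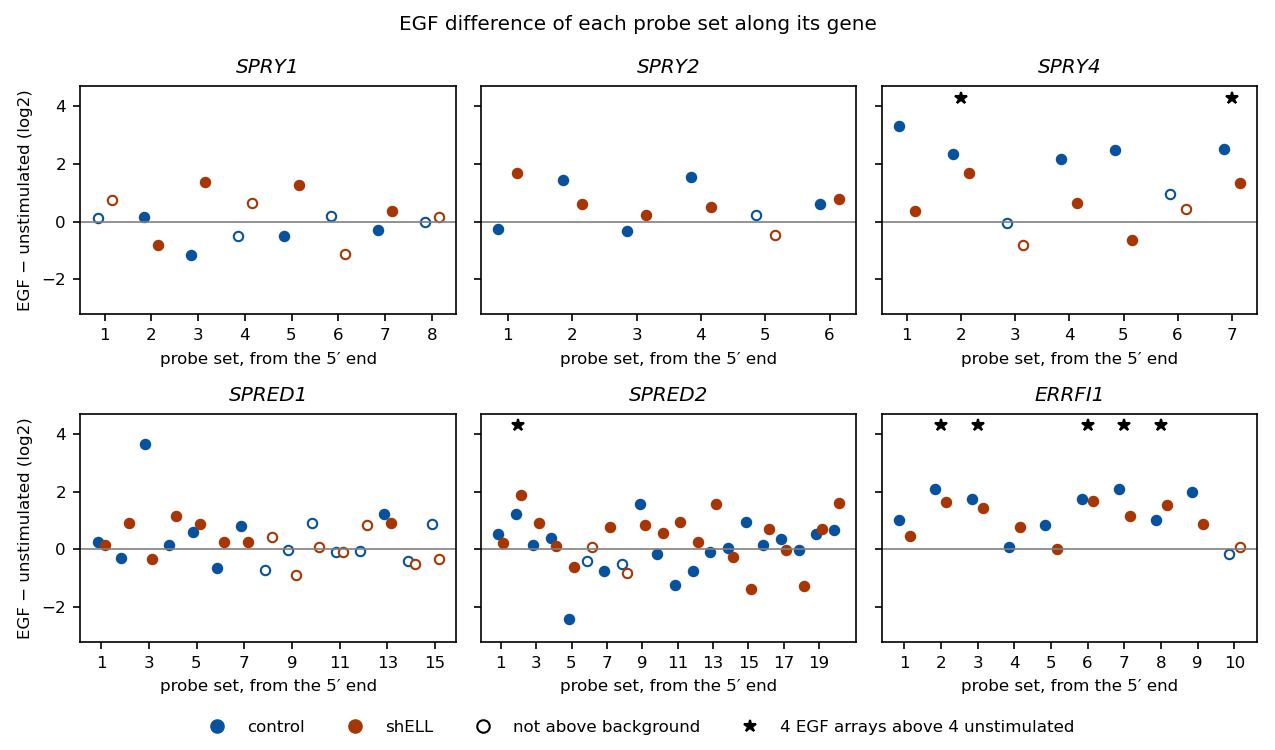
EGF minus unstimulated (log2) of each probe set of the 6 genes, in order from the 5′ end, in control (blue) and shELL (brown). Open circles were not above background in any group, and a star marks a probe set in which the 4 EGF arrays all lay above the 4 unstimulated ones: 5 in ERRFI1, 2 in SPRY4 and 1 in SPRED2.

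Of 23 other brakes on receptor and ERK signalling, 22 were measured. None passed over all genes, and the averaged EGF difference was above 0 for 9 and below 0 for 13, with a median of -0.03 against 0.05 for all genes and 0.37 for the 6 genes described here. DUSP1 and DUSP5, phosphatases of MAP kinases, were 1.35 and 1.00 higher in log2 level (limma adjusted p = 0.901 for each), and PEBP1, an inhibitor of the cascade, was at -1.07. Every EGF array was above every unstimulated one for 5 of these genes, beside 1.58% of all genes. The 5 were DUSP1, DUSP5, DUSP4, SOCS3 and PHLDA1, the last 3 named after their values were seen. Of 25 genes of the receptor to ERK cascade, 24 were measured and none passed. Of the 24, 7 were higher and 17 lower, with a median of -0.11, and the difference of SOS2, which loads RAS with GTP, was -0.56. Binding partners of the Sprouty, SPRED and ERRFI1 proteins, a list that shares genes with the others, gave 13 measured genes of 14, none passing, with a median of -0.11. There CAV1, caveolin, stood at -0.78 (unadjusted p = 0.0214), and PPP2CA and DYRK1A at -0.31 and -0.29.

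Immediate-early transcription factors were read beside them. All 18 were measured and all 18 were above 0, with a median of 1.12, and EGR1 was the 1 that passed (3.58 higher, limma adjusted p = 0.00152). IER2 was 2.10 and FOS 1.80 higher in log2 level (adjusted p = 0.209 for each). In 11 of the 18 every EGF array lay above every unstimulated array, beside 1.58% of all genes. The interaction of the 18 was below 0 for 15 and above 0 for 3, with a median of -0.45 against -0.07 for all genes. That of the 22 other brakes was below 0 for 16 and above 0 for 6, with a median of -0.11. Over all 16145 genes the interaction was below 0 for 9035 and above 0 for 7110. A negative sign is thus not particular to SPRY4. In size, 0.601% of all genes had an interaction below the -1.49 of SPRY4. Ranked by the signed averaged EGF difference, SPRY4 stood above 99.9% and ERRFI1 above 99.8% of all genes, SPRY2 88.0%, SPRED2 84.6%, SPRED1 60.2% and SPRY1 40.6%.

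**Figure D4:**
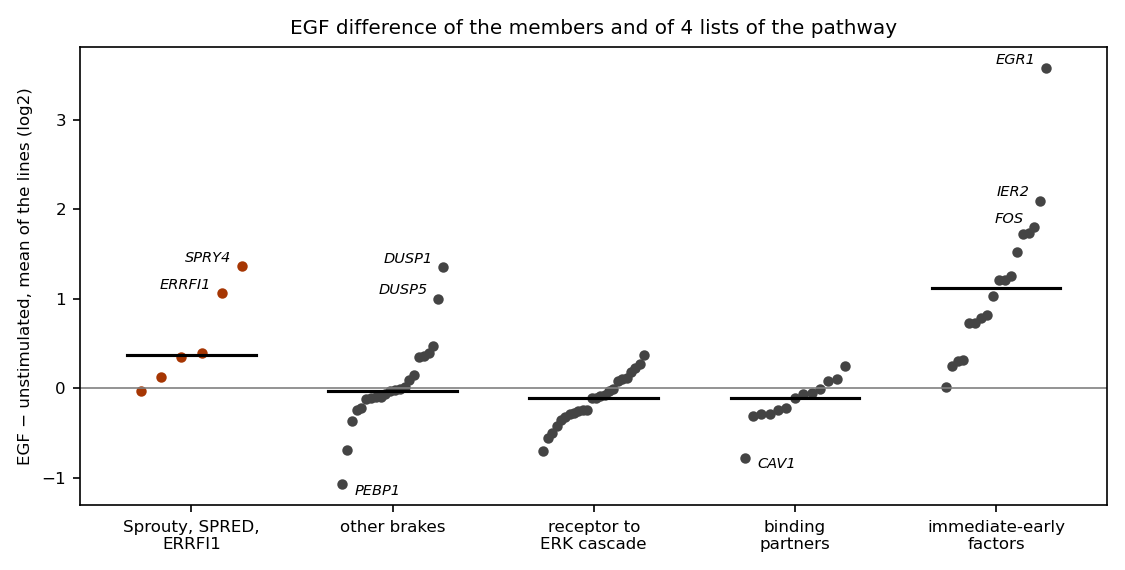
EGF minus unstimulated, averaged over the lines (log2), for the 6 genes (brown) and for the measured genes of 4 lists of the pathway (grey), with the median of each as a bar. The medians are 0.37 for the 6 genes, -0.03 for other brakes, -0.11 for the cascade, -0.11 for binding partners and 1.12 for immediate-early factors.

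Likeness over the 8 arrays was measured by Pearson's r between gene values, among genes with a mean above background. The 3 genes most like ERRFI1 were ATF3 (0.995), EGR1 (0.987) and PTGS2 (0.984). For SPRY4 they were PARP8 (0.943), SDCCAG3 (0.937) and RNF122 (0.934), and for SPRY1 UBE2D3 (0.952), LOC147804 (0.943) and KIAA0196 (0.939). For SPRY2 they were ALG9, FOXC1 and ATP5A1, for SPRED1 APCDD1, C21orf33 and SIX5, and for SPRED2 PHF11, C19orf63 and EGFL7, at 0.913 to 0.964. With 8 arrays and over 7200 candidates, the highest r of any gene is large, and the points share their arrays and their brightness. Between the 6 genes themselves r was highest for ERRFI1 with SPRY4 (0.788) and ERRFI1 with SPRY2 (0.640).

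Markers of other cell types moved with the arrays. Of 10 fibroblast markers 1, COL1A1, had a mean above background. Their mean level was 1.47 to 1.96 on unstimulated arrays and 1.74 to 2.45 on EGF arrays, highest on replicate 1 of shELL with EGF. By line it was 1.47 to 2.09 on control and 1.72 to 2.45 on shELL arrays. Of 10 keratinizing epithelium markers 9 were measured and 4 (KRT10, KRT17, SFN and KRT6A) lay above background. Their mean levels were 2.30 to 2.72 on control and 2.67 to 3.05 on shELL arrays. By state they were 2.37 to 2.85 without EGF and 2.30 to 3.05 with it. The mean level of the 7 HEK293 markers was 3.40 to 3.59 on control and 3.07 to 3.43 on shELL arrays. The part of these markers in the values of ERRFI1, SPRY4 and SPRY1 was not tested. Within replicate 2 of shELL, whose arrays both stood on the high side for GAPDH, the EGF difference was 1.34 for ERRFI1 and 1.41 for SPRY4, and within replicate 1, on the low side, 0.70 and -0.16. In control both unstimulated arrays stood on the high side for GAPDH (8.03 and 9.10) and both EGF arrays on the low side (7.48 and 6.85). EGF and this split therefore cannot be told apart in control. In bulk RNA, fewer cells expressing a gene and less RNA of it per cell cannot be told apart.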

How the data were processed

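The authors deposited log2 probe-set values of 8 human exon arrays, made with Affymetrix Expression Console and RMA per the submitters' processing notes; neither versions nor a genome build were stated. Symbols, positions and group means on the log2 scale came from another table that the authors deposited, and the means matched those of the arrays to 5e-05. Here, values were quantile-normalized between arrays. Of the probe sets, 280649 had 1 symbol, 35 several and 6645 none. Those with 1 symbol and a mean at or above the 25th percentile entered, and median polish (10 iterations or fewer) gave a value to each gene with at least 3. limma 3.58.1 in R 4.3.3 fitted the 4 group means over 8 arrays, with 2-sided p-values. The fit of single probe sets used the same model. The number of arrays limits precision.

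Members and gene lists were chosen with earlier results of these data known. Every member is named, with any called gene of a list, the 3 genes of largest absolute averaged EGF difference among those of a list above background in a group, and the 3 genes most alike over the arrays. The fit was run on simulated data with independent noise and no dim array or shift in scale. That run checked only that mean estimates lay near the differences put in, so it does not cover those traits of these arrays. Same-numbered arrays did not deviate together in all pairs (r of deviations from -0.31 to 0.51), so the replicate number was no block. All 6 symbols were current in RefSeq. Figures used matplotlib 3.10.9. Alternatives covered normalization, filter, summary, variance model, weights, block and each array left out. Some genes that this rule names are not reported here.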

Additional observations from a re-analysis of the deposited data

How the results depend on the processing

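None of the 6 genes passed an adjusted p of 0.05 in limma under any alternative run, the smallest being 0.093, for the averaged EGF difference of ERRFI1 without replicate 2 of shELL with EGF. That difference ran from 0.63, on the values as deposited, to 1.20, and that of SPRY4 from 1.13 to 1.64. The interaction of SPRY4 ran from -2.09 to -1.01, and the line difference of SPRY1 from -0.90 to -0.50. These kept their sign in all 16 alternatives. Of all alternative values of the 6 genes, 447 kept their sign and 45 did not, and the cause was not tested.

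On the values as deposited the median of all genes was -0.68 for EGF in shELL and -0.36 for the averaged EGF difference. Signs turned there for SPRED1 (averaged EGF -0.25, in control -0.054, in shELL -0.45, lines 0.22), SPRED2 (-0.35, -0.047, -0.66, interaction -0.61), SPRY2 (averaged EGF -0.020, in shELL -0.084, lines 0.056), SPRY1 (EGF in shELL -0.0098) and ERRFI1 (lines 0.25). With array median centring, where the median for EGF in shELL was -0.25, they turned for SPRED2 (averaged EGF -0.032, in shELL -0.19, interaction -0.32), SPRED1 (EGF in shELL -0.020, lines 0.038), SPRY1 (averaged EGF 0.15), SPRY2 (interaction 0.061) and ERRFI1 (lines 0.062). A filter at the 50th percentile gave SPRED1 0.33 (interaction) and 0.070 (lines), SPRY1 0.22 (averaged EGF) and SPRY2 0.42 (interaction). The mean of the probe sets gave ERRFI1 0.15 (lines), SPRY1 0.039 (averaged EGF) and SPRY2 0.028 (interaction), and no filter gave SPRED1 0.021 (interaction).

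With 1 array left out, where a lone array is taken to vary like the other groups, the ranges that crossed 0 were -0.36 to 0.185 and -0.17 to 0.10 for ERRFI1 (interaction and lines), -0.14 to 0.10 for SPRED1 (interaction), -0.070 to 0.40 for SPRED2 (EGF in control), -0.11 to 0.057 for SPRY1 (averaged EGF), and -0.46 to 0.30 and -0.31 to 0.071 for SPRY2 (interaction and lines).

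Genes called for EGF in control, 1 in the main setting, were 0 as deposited and with median centring, 2 with array weights and 2 with the replicate block. With 1 array left out they were 0 to 1, and 0 without any array other than those of shELL with EGF. For EGF in shELL the 1 became 0 in all alternatives except no filter, the variance trend and the leaving out of replicate 1 of shELL with EGF. Averaged over the lines it became 0 as deposited and with median centring, and 2 with the mean of the probe sets and with the replicate block. For shELL minus control, 0 became 1 without replicate 1 of shELL with EGF. Probe sets called for the averaged EGF difference, 0 in the main setting, were 6 with a variance trend and 2 with array weights, none of them of the 6 genes. The 8 separated probe sets were 1 as deposited, where 0.527% of all separated, 7 with median centring, and 8 to 13 with an array left out, 13 of them without replicate 1 of shELL with EGF (2.5% of all). With the replicate numbers of control EGF exchanged, a crossed replicate block chosen after seeing the data, 1 gene was called for EGF in control. The counts of separated probe sets under other settings were also added after seeing the data. Signal over background limits the dim genes: SPRED1 in all 4 groups, and SPRY1 and SPRY4 in 3 of 4, had means below the olfactory receptor level.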
